A study of Mus musculus with 2 samples.

Results

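The aminoacyl-tRNA synthetases of mouse embryonic stem (ES) cells were described here in 1 library from cells labelled T29I and 1 library from wild-type (WT) cells. Members were taken by gene symbol from the deposited table of TPM values (transcripts-per-million, a read share scaled by gene length). The rule used no measured value, but the family was chosen for description with earlier results of these data known. The rule found 40 of 51826 listed genes, of which 20 encode cytosolic synthetases, 17 encode mitochondrial synthetases and 3 encode scaffold proteins of the cytosolic multi-synthetase complex. Both libraries came from ES cells that the source label calls v6.5 and the strain label NBA1-19349, and total RNA was sequenced after removal of ribosomal RNA. The series title names the PRSS1 gene, which encodes the digestive protease precursor trypsinogen, as the mutated gene, and the labels do not say how many clones or cultures stand behind each library. Each group has 1 library, so no test between genotypes was possible, and the words higher and lower apply to these libraries alone. Genotype, clone, culture and library preparation cannot be told apart.

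An aminoacyl-tRNA synthetase joins an amino acid to the tRNA that reads its codons, and so supplies the ribosome with charged tRNA. The cytosol and the mitochondrion use separate enzymes, mostly from separate nuclear genes, and mouse symbols ending in 2 mark the mitochondrial ones. Gars and Kars supply both compartments from 1 gene each, and mitochondrial glutaminyl-tRNA is made by an amidotransferase. The enzymes fall into class I and class II, which differ in the fold of the catalytic domain. In animals several cytosolic enzymes are held with the scaffold proteins Aimp1, Aimp2 and Eef1e1 in a multi-synthetase complex. When charged tRNA is scarce, the kinase Gcn2 (Eif2ak4) raises translation of the transcription factor Atf4, which induces amino acid synthesis genes and many cytosolic synthetase genes through C/EBP-ATF response elements.

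Promoter letters for such an element were found in some cytosolic members and in no mitochondrial one with a window, and those promoters are shown for that reason. RefSeq promoter windows on GRCm38.p6, from 250 bases before to 50 bases after the gene start, were found for 30 of the 40 members. No window was used for Cars, Hars, Hars2, Lars, Nars, Pars2, Rars, Vars and Wars, among others. The letters TGATGNAAN, searched on both strands, occurred in 5 of 13 cytosolic, 0 of 14 mitochondrial and 0 of 3 scaffold genes with a window, against 4.50% of the 27025 genes that have one. The palindromic core of the element of NRF1, a factor of nuclear genes for mitochondrial proteins, occurred in 0 of the 30 and in 1.07% of all genes. The stretch from 120 bases before the start to 30 bases into the transcript follows for the 5 genes, read 5′ to 3′ on the gene's strand, with capitals on the element. The stretches lie at chr8:111033722-111033871 (Aars, + strand), chr6:55037881-55038030 (Gars, + strand), chr13:49682010-49682159 (Iars, + strand), chr15:11399629-11399778 (Tars, - strand) and chr4:129189783-129189932 (Yars, + strand).
Aars: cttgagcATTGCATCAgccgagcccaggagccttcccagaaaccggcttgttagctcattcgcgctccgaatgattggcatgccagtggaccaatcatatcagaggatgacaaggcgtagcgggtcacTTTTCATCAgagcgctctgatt
Gars: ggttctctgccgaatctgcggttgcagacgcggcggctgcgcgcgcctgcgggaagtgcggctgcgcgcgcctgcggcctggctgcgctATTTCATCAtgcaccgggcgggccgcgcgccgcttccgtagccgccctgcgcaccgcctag
Iars: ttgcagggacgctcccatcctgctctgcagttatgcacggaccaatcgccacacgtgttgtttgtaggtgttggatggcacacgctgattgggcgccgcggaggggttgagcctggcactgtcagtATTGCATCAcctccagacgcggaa
Tars: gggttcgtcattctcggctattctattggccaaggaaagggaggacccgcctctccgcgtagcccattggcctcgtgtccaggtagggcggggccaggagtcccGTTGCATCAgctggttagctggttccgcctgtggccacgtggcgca
Yars: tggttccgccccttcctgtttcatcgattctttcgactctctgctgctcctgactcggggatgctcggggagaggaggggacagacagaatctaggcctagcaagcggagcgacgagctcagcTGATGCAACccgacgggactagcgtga
These 5 genes did not share a direction or a size of difference. Gars, for glycine, had a log2 ratio of T29I over WT of 0.26 on the log2(TPM + 1) scale. Yars, for tyrosine, was at -0.47 and Aars, for alanine, which holds 2 copies of the element, was at -0.86. Iars, for isoleucine, and Tars, for threonine, were lower still at -1.87 and -2.16. After adjustment for transcript length and GC content (described below), the values were 0.86 for Gars, 0.046 for Yars, 0.17 for Aars, -0.47 for Iars and -0.72 for Tars. A match of letters is a description of the window and no evidence of a bound factor.

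The libraries had an estimated 15281605 reads (T29I) and 16909966 reads (WT) assigned to genes. Most genes were lower in the T29I library: over the 9375 genes that averaged 5 TPM or more the median log2 ratio was -0.90, called the shift below. Across genes the ratio also followed transcript length and GC content, so the counts of members by compartment, class and complex are given as deposited, relative to the shift, and adjusted for length and GC content. Other values are as deposited unless another scale is named. Of 7 ES cell markers 4 were lower by 2-fold or more and 1 was higher. Over the 12943 genes that averaged 1 TPM or more, 45.7% were lower and 9.97% higher by as much. The higher marker was Utf1, at 2459 TPM in T29I and 972 TPM in WT. Pou5f1 was at 1454 TPM in T29I and 1722 TPM in WT cells and Nanog at 140.3 and 765 TPM, while Zfp42 was at 23.3 and 544 TPM. Markers of trophoblast were higher by 2-fold or more for 3 of 6 genes. Krt8 was at 389 TPM in T29I and 28.6 TPM in WT, Krt18 at 353 TPM against 15.4 TPM, and Hand1 at 79.5 TPM against 0.868 TPM. Gata3, which averaged below 1 TPM, was at 1.56 TPM in T29I and 0.339 TPM in WT, while Cdx2 and Elf5 were below 1 TPM in both. Of 5 red blood cell markers Hbb-bs was at 1245 TPM in T29I and listed at 0 in WT. The other globin genes were far lower, with Hba-a1 at 8.02 TPM in T29I and 0 in WT, and Hbb-bt at 0.861 TPM and 0. Hba-a2 was at 1.13 TPM in T29I and 0.866 TPM in WT, and Alas2 was listed at 0 in T29I and at 0.160 TPM in WT. Of 6 fibroblast markers Thy1 was at 17.6 TPM in T29I and 4.57 TPM in WT, Col1a1 at 1.38 and 0.939 TPM, and the rest were below 1 TPM in both. Of 6 pancreatic acinar markers Cpa1, Prss2 and Amy2a5 were listed at 0 in both, Ctrb1 was at 9.9995 TPM in T29I and listed at 0 in WT, Cela1 was at 1.65 and 1.57 TPM and Pnlip at 0.408 and 0.130 TPM. Prss1 itself was listed at 0 in both libraries and so does not check the labels. The part of these marker differences in the results below was not tested, and fewer cells of a type cannot be told apart from less RNA per cell.

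All 40 genes had values above 0 in both libraries, and most synthetases were lower in the T29I library, as most genes were. Summed over the 37 synthetases, the level was 2751 TPM in the T29I library and 4092 TPM in the WT library, 0.672 times as high in T29I. As deposited, 17 of 40 members (42.5%) were lower in T29I by 2-fold or more, against 45.7% of the 12943 genes that averaged 1 TPM or more. Only Lars2, the mitochondrial leucine enzyme, was higher by that much (2.50% of members, against 9.97% of genes). The median log2 ratio of the members was -0.71 and that of all genes -0.84. Relative to the shift, 10 members were higher by 2-fold or more and 7 lower, where 26.0% and 22.2% of genes were. After adjustment 6 were higher and 5 lower, where 17.6% and 15.5% of genes were. The counting interval of the fold excluded 1 for 39 of the 40 members, with Kars as the exception, but that interval covers counting error only. The shares of members past 2-fold were thus close to or below those of all genes on each of these scales.

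**Figure D1:**
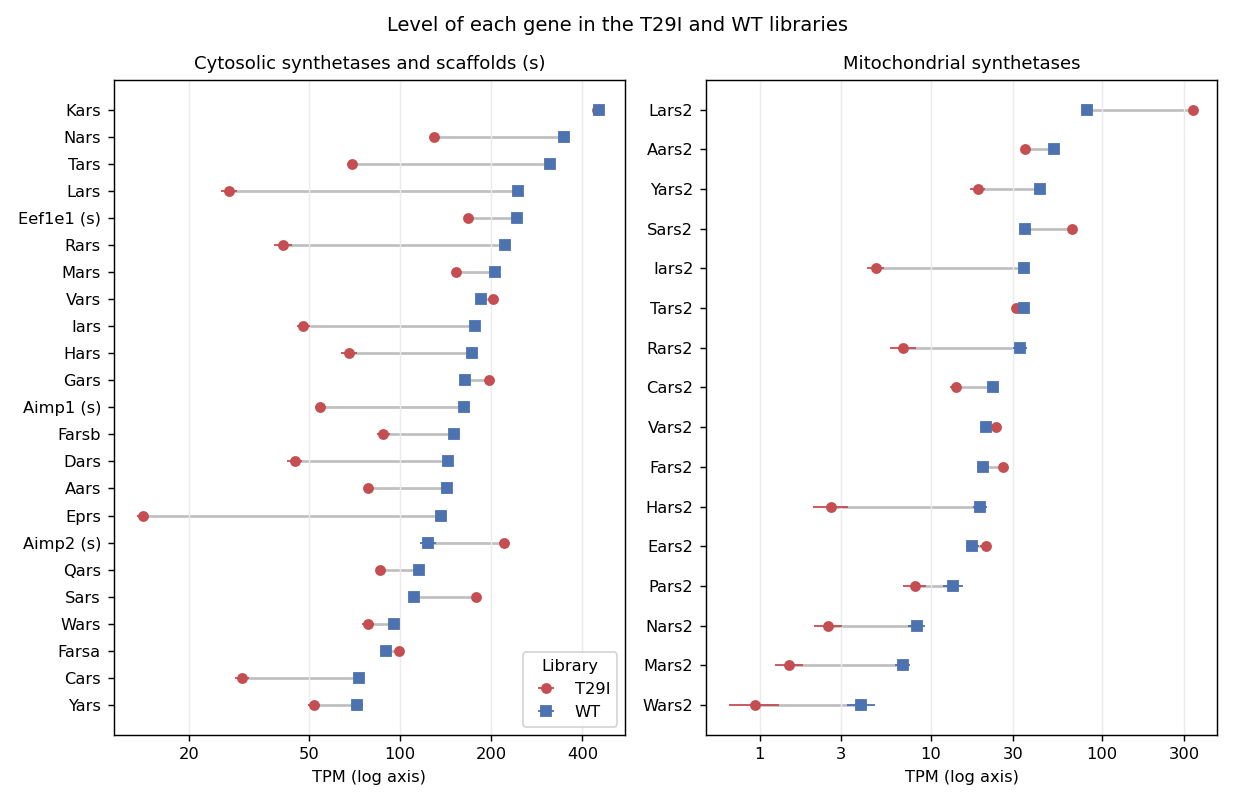
TPM of each gene shown in the T29I library (circles) and the WT library (squares) on a log axis, with cytosolic synthetases and scaffolds in the left panel, mitochondrial synthetases in the right, and genes ordered by their WT level; error bars are 95% Poisson counting intervals from estimated reads. Cytosolic levels spanned 14.1 to 448 TPM in T29I and 72.1 to 455 TPM in WT, and Lars2 stands apart among the mitochondrial genes at 340.1 TPM in T29I against 81.5 TPM in WT.

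Cytosolic enzymes were unequal in the T29I library, with the glutamate-proline, leucine and arginine enzymes lowest and the lysine, valine, glycine and serine enzymes near or above their WT level. As deposited 9 of the 20 (45.0%) were lower by 2-fold or more and 0 were higher by as much, with a median log2 ratio of -0.82, where 45.7% and 9.97% of all genes were lower and higher. Relative to the shift 4 were higher and 4 lower, and after adjustment 2 were higher and 3 lower, with medians of 0.077 and 0.065. Eprs, which charges both glutamate and proline tRNA in 1 protein, was at 14.1 TPM in T29I (95% counting interval 13.5 to 14.8) and 136 TPM in WT (134 to 139), 9.64-fold lower. Lars, the leucine enzyme, which also serves as a leucine sensor for mTORC1, was at 27.2 TPM in T29I (25.5 to 28.98) and 245 TPM in WT (239 to 250.4), 8.99-fold lower. In T29I cells these were the lowest cytosolic enzymes, whereas in WT cells Lars was among the most abundant and Eprs was above Qars and Sars. Rars, for arginine, was at 41.0 TPM in T29I and 221 TPM in WT, and Tars, for threonine, at 69.4 and 313 TPM. Iars was at 47.8 TPM in T29I and 177 TPM in WT, and Dars, for aspartate, at 44.8 and 144 TPM. Rars, Eprs and Lars stayed lower by 2-fold or more after adjustment, with log2 values of -1.48, -1.20 and -1.75, while Tars, Iars and Dars came to -0.72, -0.47 and -0.37. When the adjustment used merged exon length, chosen after seeing the data, Lars and Rars stayed at -1.78 and -1.35 but Eprs came to -0.29.

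At the other end, Sars, for serine, was at 178 TPM in T29I and 111 TPM in WT, with a log2 ratio of 0.67 and an adjusted value of 1.38. Farsa, the catalytic subunit of the phenylalanine enzyme, was at 99.4 TPM in T29I and 89.5 TPM in WT, and its adjusted value was 1.14. Its partner subunit Farsb was at 88.0 and 151 TPM, so Farsa over Farsb was 1.13 in T29I cells and 0.593 in WT cells. These 2 proteins form 1 enzyme in equal numbers, and their mRNA levels differed in opposite directions as deposited. Gars was at 197 TPM in T29I and 164 TPM in WT, and Vars, for valine, at 202 and 185 TPM. Kars, the most abundant member in either library, was at 448 TPM in T29I and 455 TPM in WT, with a fold of 0.985 (0.961 to 1.01). Wars, for tryptophan, was at 78.1 and 95.6 TPM. Nars, Hars, Cars, Aars, Farsb and Yars had log2 ratios between -1.42 and -0.47. Log2 ratios of the 9 class I enzymes lay between -3.12 and 0.13 and those of the 10 class II enzymes between -2.16 and 0.67. In each class 4 genes were lower by 2-fold or more as deposited, with medians of -0.47 for class I and -0.82 for class II. These were 44.4% of class I and 40% of class II, against 45.7% of all genes. Relative to the shift 1 class I gene was higher and 2 lower, and 3 class II genes were higher and 1 lower. Over all genes 26.0% were higher and 22.2% lower on that scale. After adjustment 0 class I genes were higher and 2 lower, and 2 class II genes were higher and 0 lower, with medians of 0.046 and 0.13. Over all genes 17.6% were then higher and 15.5% lower. The class counts are small, and no difference between the classes was tested. Eprs carries a domain of each class and was left out of the class counts.

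Members of the multi-synthetase complex were spread more widely in level in the T29I library than in the WT library, as were the cytosolic and the mitochondrial synthetases. The 11 genes spanned 115 to 455 TPM in WT, a highest level 3.95 times the lowest, and 14.1 to 448 TPM in T29I, 31.7 times the lowest. The SD of log2 TPM across the 11 genes was 1.46 in T29I and 0.571 in WT, and without Eprs and Lars, left out after their values were seen, 1.22 and 0.602. The same SD was 1.17 in T29I and 0.716 in WT for the 20 cytosolic synthetases, 2.13 and 1.10 for the 17 mitochondrial ones, and 2.13 and 1.68 for all 40 members. It was not computed over all genes, so a wider spread across the whole T29I library cannot be told apart from one of these groups. Of the 8 complex synthetases 5 were lower in T29I by 2-fold or more, namely Eprs, Lars, Rars, Iars and Dars, and none was higher than in WT. That compares with 45.7% of all genes lower by as much as deposited. Relative to the shift 3 of the 8 were lower by 2-fold or more and 0 higher, against 22.2% and 26.0% of genes. After adjustment the counts were again 3 and 0, against 15.5% and 17.6% of genes. On both of these scales the 3 were Eprs, Lars and Rars, but with merged exon length Eprs came to -0.29. Mars, for methionine, was at 153 TPM in T29I and 206 TPM in WT, and Qars, for glutamine, at 85.7 and 115 TPM, so these and Kars were the nearest to equal. The scaffolds went different ways. Aimp1 was at 54.5 TPM in T29I and 162 TPM in WT, 2.97-fold lower. Aimp2, the core scaffold, which binds Kars, was at 221 TPM in T29I and 124 TPM in WT, 1.79-fold higher. Eef1e1 was at 168 TPM in T29I and 242 TPM in WT. The median log2 ratio was -1.77 for the 8 complex synthetases and -0.62 for the 12 free cytosolic ones as deposited, and -0.42 and 0.10 after adjustment. After adjustment the scaffolds came to 0.32, 0.57 and 0.66 for Aimp1, Aimp2 and Eef1e1, so Aimp1 was lower as deposited and above 0 on the adjusted scale. The longest annotated transcript of Aimp1, whose length and GC content the adjustment used, has 1 exon, as have those of Kars, Cars2 and Mars2. Whether it stands for the mRNA of each gene was not checked.

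Mitochondrial enzymes were less abundant than cytosolic ones in both libraries, with a median of 14.6 TPM against 78.1 TPM in T29I cells and of 23.2 TPM against 158 TPM in WT cells. As deposited 7 of 17 were lower in T29I by 2-fold or more and 1 was higher, with a median log2 ratio of -0.69, where 45.7% and 9.97% of all genes were lower and higher. The counts were 5 higher and 3 lower relative to the shift (median 0.20), and 4 higher and 2 lower once adjusted (median 0.18). Over all genes 26.0% were higher and 22.2% lower relative to the shift, and 17.6% and 15.5% once adjusted. Lars2, the exception, was at 340.1 TPM in T29I and 81.5 TPM in WT, 4.17-fold higher (4.05 to 4.31), from an estimated 24915 and 4690 reads. It held 54.9% of the summed mitochondrial synthetase level in T29I and 17.2% in WT. The sum of the other 16 was 279 TPM in T29I and 392 TPM in WT, 0.712 times as high, whereas with Lars2 the sum was 1.31 times as high. Among 9100 protein-coding genes that averaged 5 TPM or more, 190 (2.09%) had a log2 ratio at or above that of Lars2, and 65 (0.714%) after adjustment. GENCODE M21 lists 9 transcripts for Lars2, of which 5 are retained-intron transcripts, and its merged exons cover 11089 bases where the longest transcript has 3894. The deposited value does not show which of these transcripts gave the reads.

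Among the other mitochondrial genes, Sars2 was the highest relative to WT, at 66.4 TPM in T29I and 35.5 TPM in WT. Fars2 was at 26.5 TPM in T29I and 20.1 TPM in WT, Ears2 at 20.9 and 17.5 TPM, and Vars2 at 24.0 and 20.9 TPM. After adjustment Ears2 and Fars2 were at 1.60 and 1.10 but Sars2 at 0.036, so the order of these genes depends on the scale. Tars2 was at 31.5 TPM in T29I and 34.7 TPM in WT. The lowest were Iars2 at 4.75 TPM in T29I and 34.8 TPM in WT, Hars2 at 2.62 and 19.4 TPM, and Rars2 at 6.88 and 33.2 TPM. Hars2 and Rars2 stayed lower by 2-fold or more after adjustment, at -1.36 and -1.11, and Iars2 came to -0.89. With merged exon length Hars2 was at -1.39 and Rars2, just short of 2-fold, at -0.997. Mars2 was at 1.49 TPM in T29I and 6.86 TPM in WT, Nars2 at 2.52 and 8.24 TPM, and Wars2 at 0.942 and 3.92 TPM. These 3 were lower as deposited but above 0 after adjustment, at 1.49, 0.080 and 0.18, and Wars2 rested on an estimated 37 reads in T29I and 121 in WT. A value above 0 on that scale does not mean that their TPM was higher in T29I than in WT. Yars2, Cars2, Pars2 and Aars2 had log2 ratios between -1.17 and -0.55.

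**Figure D2:**
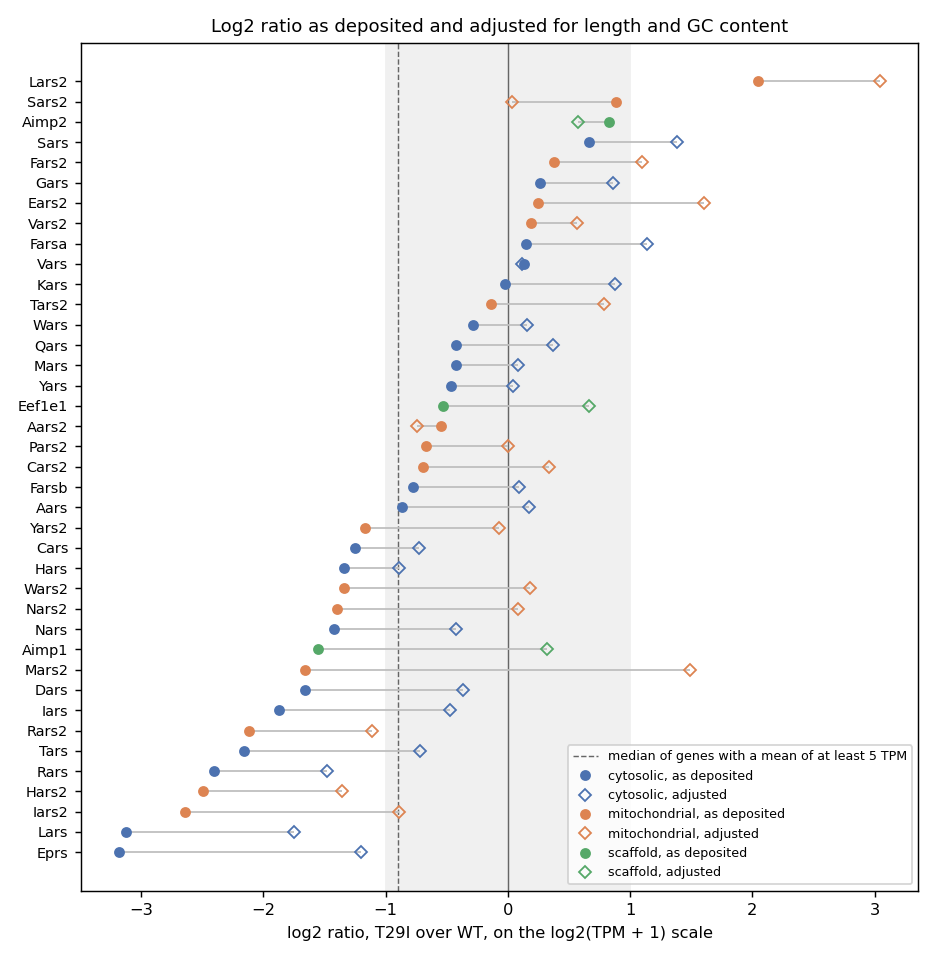
Log2 ratio of T29I over WT for each member shown, as deposited (filled circles) and adjusted for transcript length and GC content (open diamonds); the shaded band marks ratios within 2-fold and the dashed line the median of -0.90 over genes that averaged 5 TPM or more. Lars2 lies outside the band on the high side on both scales, and Eprs, Lars, Rars, Hars2 and Rars2 on the low side on both.

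As deposited, the balance of cytosolic and mitochondrial enzyme differed most between the libraries for leucine, glutamate, proline and threonine. Each of 17 pairs joins a cytosolic gene to the mitochondrial gene for the same amino acid, with Eprs used for both glutamate and proline and Farsa for phenylalanine. The cytosolic gene was the more abundant in 15 of 17 pairs in T29I and in 17 of 17 in WT. For leucine, the ratio of Lars to Lars2 TPM was 0.0800 in T29I and 3.001 in WT. For glutamate, the ratio of Eprs to Ears2 was 0.675 in T29I and 7.80 in WT. These are the pairs in which the mitochondrial gene was the more abundant in T29I. For proline, Eprs over Pars2 was 1.75 in T29I and 10.1 in WT, and for threonine Tars over Tars2 was 2.20 and 9.02. In the opposite direction, Mars over Mars2 was 103 in T29I and 30.04 in WT, Wars over Wars2 82.9 and 24.4, and Hars over Hars2 25.9 and 8.91. The log2 ratio of the cytosolic gene was the lower of the pair in 12 of 17 pairs, with a median difference of -0.23, and after adjustment in 11 of 17, with a median of -0.45. By 2-fold or more the cytosolic gene was the lower in 4 pairs and the higher in 3, and after adjustment in 7 and 1. The longest transcript of Mars has 3065 bases and that of Mars2 11294 bases, and the difference of 1.24 between them came to -1.41 after adjustment. As deposited the ratios within a pair were near each other for valine, asparagine, serine, phenylalanine and arginine, where the difference lay between -0.29 and -0.025. After adjustment the serine pair differed by 1.35, with Sars the higher. The adjusted differences were -4.79 for leucine, -2.81 for glutamate, -1.21 for proline and -1.51 for threonine. Proline thus fell behind methionine and serine in size on that scale. With merged exon length Eprs came to -0.29 and Pars2 to -0.19, near each other. The phenylalanine pair uses Farsa, and Farsb, at -0.77, was farther from Fars2, at 0.38.

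**Figure D3:**
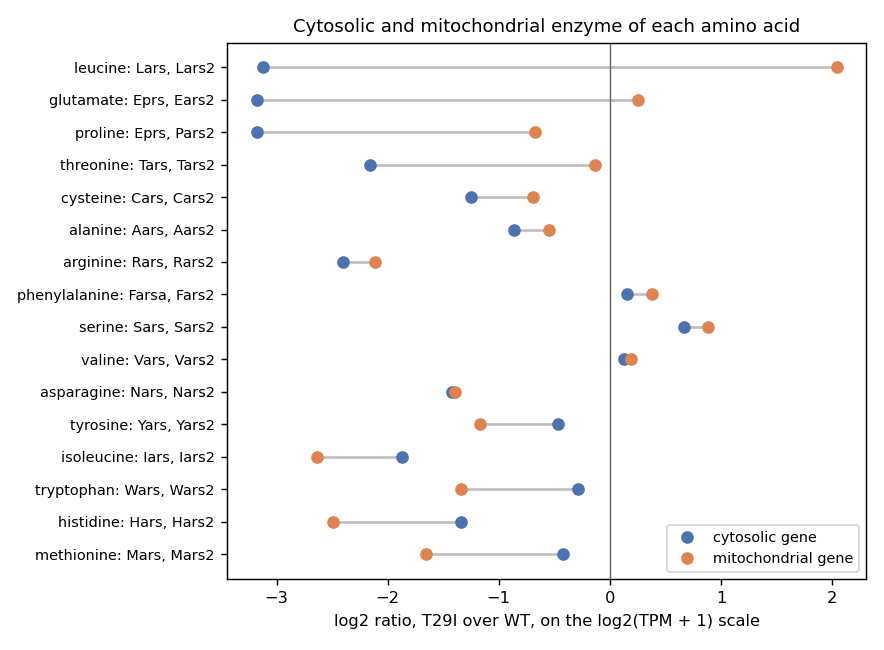
Log2 ratio of T29I over WT on the log2(TPM + 1) scale for the cytosolic and the mitochondrial gene of each amino acid shown, ordered by their difference. The leucine pair lies farthest apart, with Lars at -3.12 and Lars2 at 2.05, and the asparagine pair closest, with Nars at -1.42 and Nars2 at -1.39.

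Within the family the ratio went with GC content more than with length. Spearman's rho across the 40 members was 0.66 with the GC content of the longest transcript and -0.20 with its length, against 0.56 and -0.53 across the 9100 protein-coding genes. The members share the 2 libraries and are not independent, so these values are descriptions. Among cytosolic synthetases rho with GC content was 0.60 (20 genes) and among mitochondrial ones 0.75 (17 genes). Eprs, at 44.0% GC, and Rars, at 45.9%, were low in both GC content and ratio. Vars, at 60.9% GC, and Sars2, at 60.1%, were high in GC content with ratios above 0, whereas Aars2, at 59.99%, was at -0.55. Lars2, at 51.2% GC, had the highest ratio in the family. The SD of the log2 ratio across members was 1.16 as deposited and 0.959 after adjustment, and that of the 9100 genes was 1.44 and 1.07. The order of the cytosolic enzymes by level was hardly shared between libraries, with a rho of 0.21 between T29I and WT levels over 20 genes, and that of the mitochondrial enzymes more so, with 0.72 over 17.

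**Figure D4:**
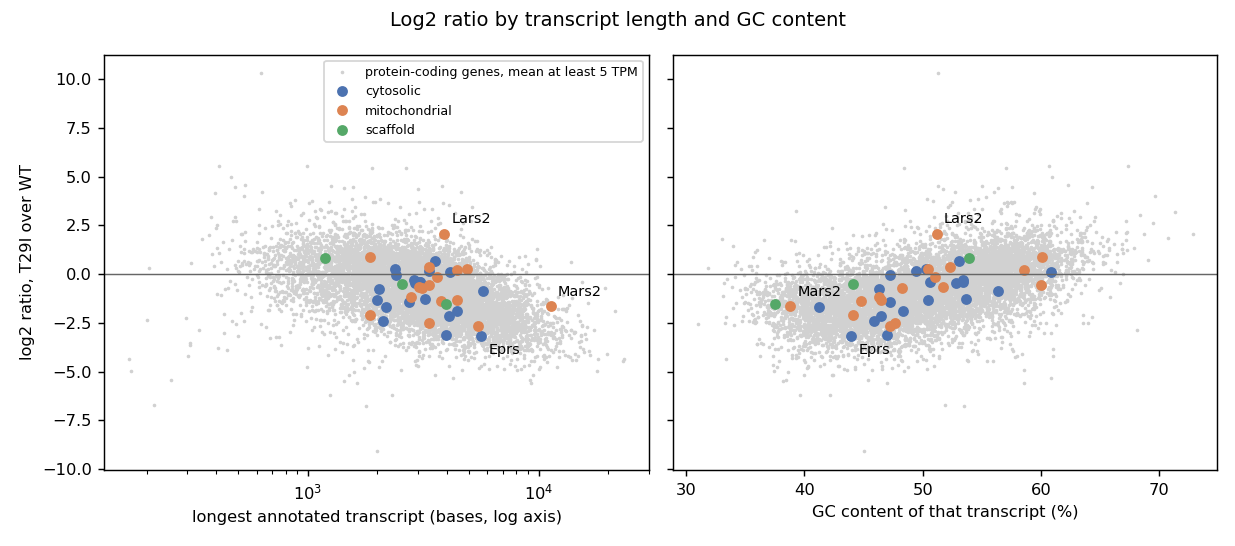
Log2 ratio of T29I over WT against the length of the longest annotated transcript (left, log axis) and its GC content (right); grey points are protein-coding genes that averaged 5 TPM or more and coloured points the members shown, by compartment. Eprs, at 5638 bases and 44.0% GC, lies within the grey cloud, and Lars2, at 3894 bases and 51.2% GC, lies above most of it.

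Other genes of tRNA charging resembled the synthetases, and a list of amino acid sensing and response genes had a higher median ratio. Of 19 charging partners 8 were lower in T29I by 2-fold or more as deposited and 1 was higher, with a median log2 ratio of -0.74, where 45.7% and 9.97% of genes were. The lowest were Sepsecs, which makes selenocysteinyl-tRNA, at 1.90 TPM in T29I and 14.3 TPM in WT, and Gatc, a subunit of the mitochondrial glutaminyl-tRNA amidotransferase, at 4.21 and 26.4 TPM. The highest were Eefsec, the selenocysteine elongation factor, at 51.7 TPM in T29I and 21.3 TPM in WT, and Aarsd1, an alanyl-tRNA editing protein, at 137 and 72.6 TPM. After adjustment 2 partners were higher by 2-fold or more and 1 lower, with a median of 0.11, where 17.6% and 15.5% of genes were. The other list has 16 genes of amino acid sensing and response, among them Atf4, Atf4-induced genes, amino acid synthesis enzymes and transporters. Of these 15 averaged 1 TPM or more. As deposited 5 were higher by 2-fold or more and 2 lower, with a median of -0.025, where 9.97% and 45.7% of genes were. Relative to the shift 7 were higher and 1 lower, and after adjustment 4 and 0, with a median of 0.47. The highest were Chac1, an Atf4-induced glutathione-degrading enzyme, at 32.1 TPM in T29I and 5.06 TPM in WT, and Trib3, an Atf4-induced pseudokinase, at 60.8 and 20.7 TPM. The lowest were Eif2ak4 at 2.11 TPM in T29I and 13.5 TPM in WT, and Gcn1l1, its activator, at 14.6 and 36.0 TPM. As deposited the higher median of the list thus did not hold for this sensing kinase and its activator. Atf4 mRNA was at 235 TPM in T29I and 292 TPM in WT, and Asns, the asparagine synthetase and a standard Atf4 target, at 141 and 198 TPM. Of the 20 cytosolic synthetases 4 had a ratio above 0 as deposited, as had 3694 of the 12943 genes. Relative to the shift 11 of the 20 were above 0, as were 6649 of the 12943 genes. After adjustment 11 of the 20 were above 0, as were 6650 of 12920 genes, a similar share.

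Some values carry a limit from neighbouring genes. Exons of 16 members overlap those of another listed gene, and in some the overlap covers more than 10% of the exon bases. It covers 29.4% of Aimp2, with Eif2ak1 on the other strand, and 22.9% of Iars2, with Rab3gap2 on the other strand. It covers 14.3% of Aars, with Exosc6 on the same strand, which was listed at 0 in both libraries. The kit keeps strand, but the sources used here do not say whether counting used it. The processed pseudogenes Kars-ps1 and Gm4849 (similar to Iars) were listed at 0 in both libraries.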

How the data were processed

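Per the labels' protocols, RNA came from an Isogen extraction and a stranded TruSeq kit with Ribo-Zero depletion was used. The authors deposited TPM values per gene, 1 column per library; the header names no unit, and TPM was read from columns that each sum to 1000000 and from steps that follow gene length. For aligner, counting tool, build and annotation nothing is given in the sources used here. Each column was tied to its library by the description label. Members were found by symbol, and compartments, classes and complex membership were assigned from general knowledge; members and lists were chosen with earlier results of these data known.

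Log2 ratios are T29I over WT on the log2(TPM + 1) scale, and 2-fold or more means a log2 ratio of at least 1 in size in a gene that averaged 1 TPM or more. No count model was fitted. GENCODE M21 (GRCm38) matched 51633 of 51826 identifiers. TPM times merged exon length fell within 0.05 of a whole multiple of 1 value for 85.9% (T29I) and 87.5% (WT) of values under 60 reads, which gave estimated reads and 95% exact Poisson intervals; fold intervals are exact binomial. Both cover counting error only. Adjusted values are residuals from a second-order polynomial fitted to 9100 protein-coding genes that averaged 5 TPM or more. Its terms were the log2 length and the GC content of the longest transcript, cross term included, and it explained 44.9% of the variance. The procedure was tested on simulated data whose trend had a form that the polynomial contains. That test does not check the choice of length or the shape of the trend in these libraries. The adjustment removes true differences that follow length or GC content too. Described singly were, per compartment, the 6 highest and 6 lowest ratios, all complex members and any gene higher by 2-fold or more; of the 2 pathway lists, the 2 highest and 2 lowest. Atf4, Asns and Farsb were added after their values were seen. Counts and medians are over all 40 members, of which 1 is not reported singly here or drawn in the figures. Windows for promoters came from RefSeq by symbol, and for Mars by its synonym on the same chromosome. Python 3.11.15, pandas 2.3.3, numpy 2.4.6, scipy 1.17.1 and matplotlib 3.10.9 were used.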

Additional observations from a re-analysis of the deposited data

How the results depend on the processing

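A pseudocount of 0.1 TPM, a mean of at least 5 TPM, no filter, and rescaling to protein-coding genes outside the mitochondrial genome left the counts of members past 2-fold within 1.5 times of those reported. Without the 28 most abundant genes, 3 members were higher by 2-fold or more. Relative to the shift, 10 were higher and 7 lower, and the medians were 0.18 for all members, 0.077 for cytosolic and 0.20 for mitochondrial synthetases. Adjusted for length and GC content, 6 were higher and 5 lower, with medians of 0.10 and 0.065 for all and cytosolic members. With merged exon length, an alternative chosen after seeing the data, 7 were higher and 3 lower, and the medians were 0.23, 0.025 and 0.41. The sign of the called difference turned for Mars2, Aimp1, Nars2 and Wars2 under adjustment, at 1.49, 0.32, 0.080 and 0.18 with the longest transcript and 0.78, 0.34, 0.33 and 0.13 with merged exon length; the cause was not tested. All 10 members above 0 as deposited stayed above 0 under both adjustments for length and GC content. The adjustment also removes the shift: with the longest transcript it moved the median of all genes from -0.84 to 0.040. Staying above 0 is thus at most a weak check. The other alternatives left the ratios of these 10 unchanged, raised them or could not turn their sign, so they do not check this either. Eprs came to -0.29 with merged exon length; its merged exons cover 18102 bases and its longest transcript 5638. The median difference between cytosolic and mitochondrial enzymes of an amino acid stayed between -0.45 and -0.23. No paired analysis was possible because each group has 1 library. The lowest members, such as Wars2 with an estimated 37 reads in T29I, have the widest counting intervals.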

Other observations

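Of the 40 members, 12 start within 1000 bases of a protein-coding gene on the other strand. Hars and Hars2 count as each other's neighbour and run in opposite directions from starts 197 bases apart. The ratio had the same sign in 9 of the 12 pairs as deposited and in 8 after adjustment. No such share was counted over all genes. Sars2 and Mrps12, which encodes a mitochondrial ribosomal protein, were both higher in the T29I library, with Mrps12 at 263 TPM in T29I and 155 TPM in WT, although both were near 0 after adjustment at 0.036 and 0.020. Rars2 and Orc3, a subunit of the origin recognition complex, were both lower, with Orc3 at 8.80 TPM in T29I and 35.2 TPM in WT. Aimp2 and the mismatch repair gene Pms2, whose starts lie 117 bases apart, went opposite ways, with Pms2 at 1.81 TPM in T29I and 13.4 TPM in WT. Kars was nearly equal between the libraries, while the telomere protein gene Terf2ip, 75 bases away, was lower, at 3.49 TPM in T29I and 15.7 TPM in WT. These pairs were examined after the members' values were seen, and no test was made of them.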
